A study of Mus musculus with 2 samples.

Results

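The genes described here encode the mitogen-activated protein (MAP) kinase cascades and the dual-specificity phosphatases, and the question is where FOS peaks lay around them. They were chosen by symbol alone, as protein-coding genes whose symbol starts with Map2k, Map3k, Map4k, Mapk, Mapkapk or Dusp followed by a number. This gave 76 of the 21887 protein-coding mouse genes. The measured data are 1 list of 2374 FOS ChIP-seq peaks from granulosa cells, which line the ovarian follicle and support its oocyte. The cells came by follicle puncture from wild-type females 25 days old that were primed with PMSG, a gonadotropin that drives follicle growth. They were taken 3 h after hCG, a gonadotropin that stands in for the ovulatory surge of luteinizing hormone. FOS was precipitated with a Santa Cruz antibody. The series has 2 libraries, both from hCG-treated cells, and the library without an antibody in its label was not analysed here. There was no untreated group and no replicate, so the values describe 1 library, carry no error between animals, and cannot show what hCG changed. Read counts were not among the values used, and the sequencing depth is not known.

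MAP kinase cascades pass a signal along a chain of kinases. A MAP4K or a small GTPase activates a MAP3K, which phosphorylates a MAP2K, which phosphorylates a MAP kinase of the ERK, JNK, p38 or ERK5 type. Several dual-specificity phosphatases, the MAP kinase phosphatases, remove the activating phosphates and so end the signal. In the ovulatory follicle the hormone surge leads to EGF-like ligands and ERK activity in granulosa and cumulus cells, and Fos is a classical gene switched on by ERK signalling. FOS pairs with JUN proteins as AP-1, which binds TGACTCA and TGAGTCA.

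FOS peaks belonged to 10 of the 76 genes (13.2%, exact 95% interval 6.49 to 22.9). A gene counted if the authors' annotation gave it as the nearest gene of a peak or named it as the gene the peak lies in. By the same rule 8.69% of all protein-coding genes had a peak, a share that lies within the interval, so by this rule the count is no result about these genes as a set. The background lay below the interval under 2 alternatives. One took all annotated genes as the background (4.45%), noncoding genes included, and the other counted any peak within 50 kb, given further on. As the nearest gene alone, 9 of the 76 had a peak against 7.58%, and as the gene a peak lies in, 5 of the 76 against 5.64%. The 10 genes were Map3k5, Map3k7, Map3k20, Map3k21, Map2k3, Map4k3, Mapk10, Dusp5, Dusp7 and Dusp16. They held 11 peaks, with 2 at Map3k7 and 1 at each other gene. The deposited table lists Map3k20 and Map3k21 under their older names, Zak and BC021891. With names taken as spelled there, 9 peaks at 8 genes remained. The intervals of shares in this text are exact Clopper-Pearson intervals and cover counting error only.

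Each peak carries a score from the authors, used here to rank the peaks of the list, with a median of 67 over all 2374. Of the 11 peaks, 6 scored above that median, and they belonged to Map3k5, Map3k7, Map3k21, Map2k3 and Map4k3, all kinases that act above the MAP kinases. The 5 peaks below it belonged to Dusp16, Mapk10, Dusp5, Dusp7 and Map3k20. The lowest score of the 11, 18, belonged to Map3k20, which also acts above the MAP kinases, so the scores did not divide by tier. Over the 11 peaks the score ran from 18 to 210 with a median of 98, and 4 peaks scored at least 99, as did 618 of all peaks. Their width was 268 to 494 bp (median 326 bp, against 342 bp for all peaks).

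**Figure D1:**
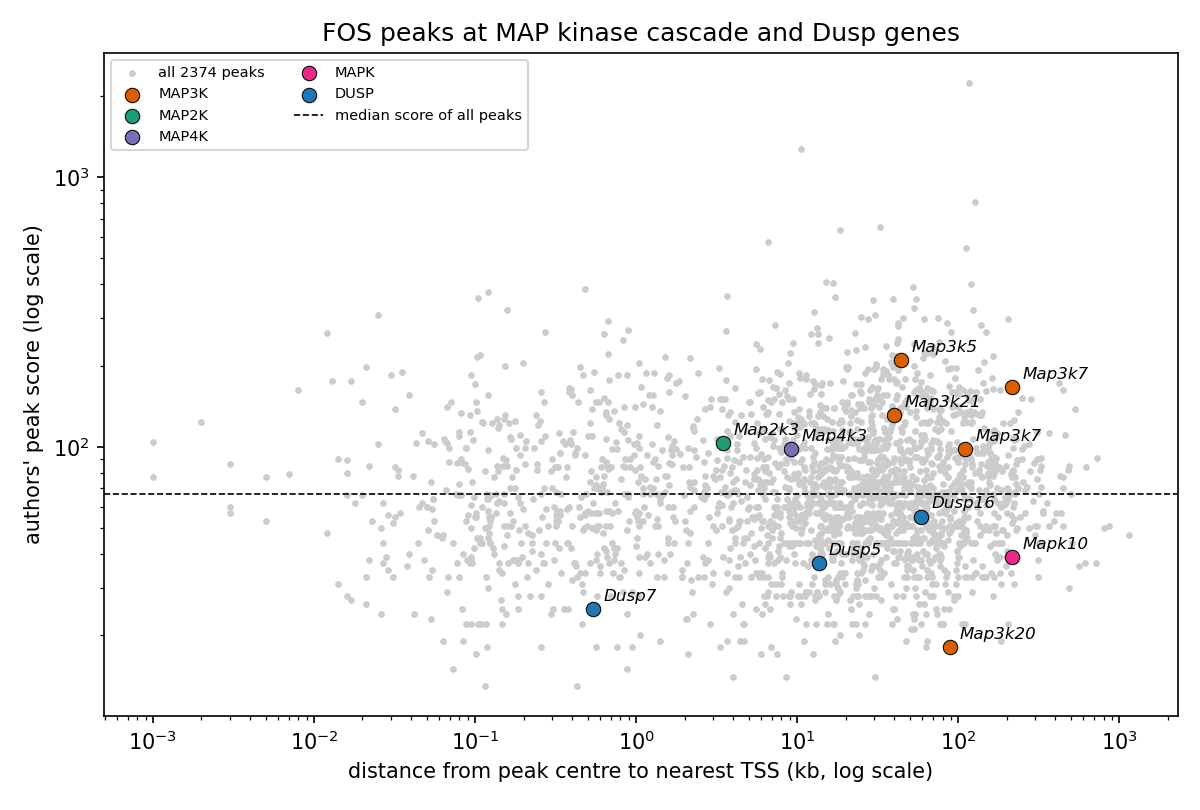
Authors' peak score (vertical, log scale) against the distance from the peak centre to the nearest transcription start site in kb (horizontal, log scale) for all 2374 peaks in grey and the 11 peaks of the described genes in colours by family. The dashed line is the median score of 67, and the Dusp16, Dusp5, Dusp7, Mapk10 and Map3k20 peaks lie below it.

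Most of the 11 peaks lay far from a transcription start site (TSS). In the authors' classes 5 were intergenic, 5 intronic and 1 (9.09%, interval 0.23 to 41.3) was a promoter peak, against 15.2% promoter peaks in the whole list. The median distance to the nearest TSS was 44.1 kb, against 18.2 kb for all peaks. By the authors' distances 3 of the 11 peaks were over 100 kb from it (27.3%, against 12.9% of all peaks). Of these 3, the Mapk10 peak lay 64.2 kb from a second RefSeq start site. The stronger Map3k7 peak lay 58.2 kb from the span of Bach2, so the nearest start may be closer than the authors' distance. Within 10 kb lay 3 of the 11 peaks and 910 of all 2374 peaks. With 11 peaks these shares are imprecise.

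MAP3K genes had the most peaks among the families, at 4 of 18 genes (22.2%, interval 6.41 to 47.6, which holds the background of 8.69%). The highest score belonged to Map3k5, which encodes ASK1, a kinase that answers oxidative stress and drives JNK and p38. Its peak scored 210, above 96.8% of all peaks, and lay in intron 18 of 29 at chromosome 10, 20104546 to 20105014 (mm10). The authors' nearest gene for this peak is Map7, a microtubule-binding protein whose TSS lies 44.1 kb away, while the Map3k5 TSS lies 170 kb away. Map3k5 therefore counts through the gene the peak lies in and not through the nearest TSS.

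Map3k7 encodes TAK1, which links TGF-beta, interleukin-1 and TNF receptors to JNK, p38 and NF-kappaB. It had 2 intergenic peaks downstream of the gene, the only member with more than 1. The stronger scored 166 at chromosome 4, 32179738 to 32180231, and lay 216 kb from the TSS and 156 kb past the gene's end. The weaker scored 98 and lay 111 kb from the TSS. Both sit in the interval between Map3k7 and Bach2, a transcriptional repressor gene. The stronger is nearer to the Bach2 span (58.2 kb) than to the Map3k7 span, and it overlaps Gm42266, a long noncoding RNA gene in RefSeq. A further peak, assigned to Bach2 with a score of 64, lies 70.4 kb beyond the stronger one. Assignment to Map3k7 rests only on the nearest TSS in the authors' annotation. For the stronger peak the edge of the RefSeq Bach2 span (58.2 kb) is closer than the Map3k7 TSS (216 kb). Which Bach2 start the authors' annotation used was not checked, so this peak may be nearer to a Bach2 start.

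Map3k21 encodes a kinase of the mixed-lineage group. Its intergenic peak scored 131 and lay 3.06 kb past the end of the gene, 40.2 kb from the TSS, at chromosome 8, 125950497 to 125950853. Map3k20 encodes ZAK, a kinase that senses stalled ribosomes. Its peak scored 18, higher than 0.505% of all peaks, and lay 88.5 kb upstream of the TSS in intron 11 of 29 of Rapgef4, a cAMP-regulated exchange factor gene. The remaining 14 MAP3K genes had no peak. Among these, Map3k2 of the ERK5 pathway lay 15.2 kb from an intergenic peak of score 243 that was assigned to Proc. Map3k13 lay 42.8 kb from a peak of score 124 in Liph.

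Of 5 MAP4K genes, 1 had a peak. Map4k3 encodes GLK, a kinase linked to JNK and to amino-acid sensing by mTORC1. Its peak scored 98 and lay 9.18 kb upstream of the TSS at chromosome 17, 80736997 to 80737404, the closest intergenic peak to a TSS among the 11. The gene on its other side, Tmem178, is 207 kb away. Map4k2 had no peak of its own, but a peak of score 51 at the Men1 promoter lay 6.5 kb from its span.

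Of 7 MAP2K genes, 1 had a peak. Map2k3 encodes MKK3, an activator of p38. Its peak scored 103, above 76.5% of all peaks, and lay 3.47 kb downstream of the TSS in intron 1 of 11, at chromosome 11, 60935327 to 60935735. Among the 11 peaks it alone combined a score of at least 99 with a distance under 10 kb. Map2k6, the other p38 activator, had its nearest peak 778 kb away. The ERK activators Map2k1 and Map2k2 had none assigned, with the nearest peaks 135 kb and 46.5 kb away. The JNK activators were further off, at 301 kb for Map2k4 and 7010 kb for Map2k7.

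Of 13 MAP kinase genes, 1 had a peak (7.69%, interval 0.195 to 36.0). Mapk10 encodes JNK3, the JNK form best known from neurons. Its peak scored 39 and lay in intron 5 of 13 at chromosome 5, 102994052 to 102994325. The centre is 217 kb from the TSS that the authors used and 64.2 kb from a second start site in the RefSeq table. Mapk10 is also the longest of these genes with a peak, at 304 kb. Mapk3 (ERK1) had no peak, and the nearest lay 131 kb away. Of the other JNK genes, Mapk9 (JNK2) lay 35 kb from a peak of score 358 in intron 5 of Gfpt2, the highest score among the peaks nearest to members that were within 50 kb. Mapk8 (JNK1) lay 916 kb from its nearest peak. The p38 genes Mapk11, Mapk12, Mapk13 and Mapk14 had none, and Mapk11 and Mapk12 lay 46.3 kb and 54.3 kb from the same Dennd6b peak of score 77. None of the 3 MAPKAPK genes, kinases that p38 activates, had a peak, and neither did any of the 6 genes for partner proteins such as the JNK scaffolds Mapk8ip1, Mapk8ip2 and Mapk8ip3.

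Grouped by pathway, the JNK group of 8 had a peak at Mapk10 (12.5%) and the p38 group of 9 at Map2k3 (11.1%). The share over all protein-coding genes was 8.69%. Map3k5, Map3k7, Map3k20, Map3k21, Map4k3 and Dusp16 had peaks but were in neither group. Several of these are also tied to JNK or p38. The ERK5 group of 4, with Map2k5, Mapk7, Map3k2 and Map3k3, had none. These groups are too small to be compared.

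**Figure D2:**
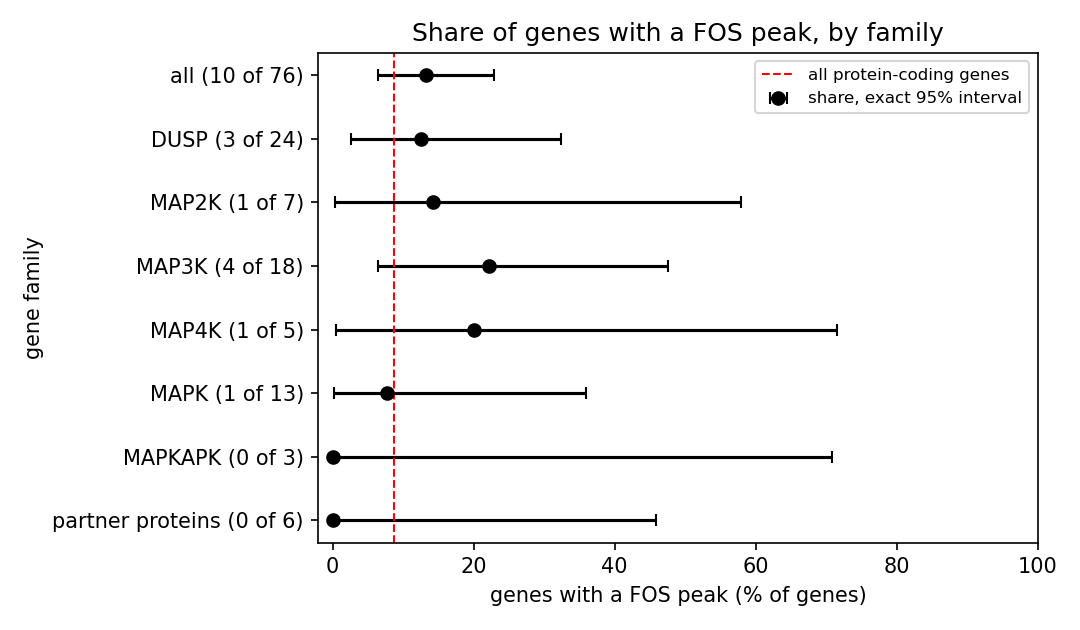
Share of genes with a FOS peak in percent (horizontal) for each family and for all 76 genes (vertical), with the number of genes with a peak of all genes in the family. Points are shares, bars are exact 95% intervals, and the dashed line is the 8.69% of all protein-coding genes, which lies within each interval drawn.

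Of 24 dual-specificity phosphatase genes, 3 had a peak (12.5%, interval 2.66 to 32.4), and all 3 encode MAP kinase phosphatases. Of the 10 MAP kinase phosphatase genes, Dusp1, Dusp2, Dusp4, Dusp5, Dusp6, Dusp7, Dusp8, Dusp9, Dusp10 and Dusp16, this is 30.0% (interval 6.67 to 65.2, which holds the 8.69% of all protein-coding genes). Dusp7 encodes a cytoplasmic phosphatase selective for ERK, and it had the promoter peak of the set. That peak scored 25, higher than 3.58% of all peaks, and lay 543 bp upstream of the TSS at chromosome 9, 106367936 to 106368243. Dusp5 encodes a nuclear phosphatase that acts on ERK. Its peak scored 37 and lay 13.6 kb downstream of the TSS, 974 bp past the end of the gene, at chromosome 19, 53542783 to 53543050. Dusp16 encodes a phosphatase that prefers JNK and p38. Its peak scored 55 and lay in intron 4 of 6, 58.5 kb from the TSS, at chromosome 6, 134733943 to 134734258.

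Of the inducible phosphatase genes Dusp1, Dusp2, Dusp4, Dusp5, Dusp6 and Dusp10, Dusp5 had the peak given above and the other 5 had none. The nearest lay 649 kb from Dusp1, 757 kb from Dusp6, 531 kb from Dusp4, 1040 kb from Dusp2 and 1050 kb from Dusp10. Dusp1 is an immediate early gene of stress and growth signals, and Dusp6 an ERK-specific feedback phosphatase. The median gap was 332 kb for all protein-coding genes without a peak, of which 4427 lay over 1 Mb from one. Dusp8, without a peak as well, lay 375 kb from the nearest. Of the atypical phosphatases, Dusp13 lay 1.61 kb from a peak of score 37 at the promoter of Samd8. Dusp21, on the X chromosome, lay 15.6 kb from a peak of score 131 at the promoter of Kdm6a, a histone demethylase.

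The promoters of the 2 ERK phosphatase genes are shown because their peaks lay within 1 kb of the gene span without overlapping it. RefSeq promoter windows (GRCm38.p6) reach from 250 bases before the TSS to 50 after it, and 58 of the 76 genes had 1 or more. The 250 bases before the TSS are printed 5′ to 3′ on the plus strand, Dusp5 from chr19:53528895-53529144 and Dusp7 from chr9:106368382-106368631. Capitals mark the motifs searched on both strands, the AP-1 form TGANTCA, the cAMP response element TGACGTCA and the CArG box, which serum response factor binds. A TGACGTCA site does not contain TGANTCA.
Dusp5: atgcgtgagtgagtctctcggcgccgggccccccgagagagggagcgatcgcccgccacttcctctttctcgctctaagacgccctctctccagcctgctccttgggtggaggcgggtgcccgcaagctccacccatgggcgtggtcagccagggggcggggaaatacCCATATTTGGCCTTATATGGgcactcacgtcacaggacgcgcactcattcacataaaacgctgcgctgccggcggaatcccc
Dusp7: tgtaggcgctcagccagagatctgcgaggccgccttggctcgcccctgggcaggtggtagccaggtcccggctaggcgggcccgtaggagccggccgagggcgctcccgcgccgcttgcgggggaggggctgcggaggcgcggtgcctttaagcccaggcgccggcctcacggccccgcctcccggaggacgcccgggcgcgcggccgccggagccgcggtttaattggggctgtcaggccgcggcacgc
The Dusp5 window holds 2 CArG boxes side by side, 82 and 72 bases before the TSS, and neither TGANTCA nor the full TGACGTCA. Shorter forms of these motifs were not searched. A CArG box is in 1 of the 74 windows of the described genes (1.35%), against 1.63% of all 32851 windows. The Dusp7 window holds none of the searched motifs and begins 139 bp after the end of the Dusp7 peak. The sequence under the peaks themselves was not used here, so these letters say nothing of the peak.

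No promoter window of these genes was overlapped by a FOS peak, in 74 windows, against 1.11% of all 32851 windows. With a background share this low, the absence in 74 windows is no result about these promoters. The AP-1 form TGANTCA was in 4 of the 74 windows (5.41%, interval 1.49 to 13.3), against 7.81% of all windows. The 4 belonged to Dusp13, Map2k6, Map2k7 and Map3k10, none of which had a peak. The sites are shown with 10 bases on each side, in the direction of the gene, because they hold the AP-1 form without a peak. Dusp13 and Map3k10 have the strict form TGAGTCA.
Dusp13: tgggacttgcTGAGTCActttgtccca
Map3k10: cttggctaaaTGAGTCAgttaccgtga
Map2k6: tctaagctgtTGATTCAggggtttttc
Map2k7: ctgtccctctTGATTCAgcagaatgtc
The sites begin 72, 218, 232 and 92 bases before the TSS in that order. They lie at chr14:21748678-21748704 (minus strand), chr7:27674783-27674809 (minus), chr11:110398860-110398886 (plus) and chr8:4240003-4240029 (plus). Over all genes, 4.21% of windows with TGANTCA were overlapped by a peak, against 0.849% of windows without it, so a window with the motif and without a peak was the usual case.

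The cAMP response element TGACGTCA was in 3 of the 74 windows (4.05%, interval 0.844 to 11.4), against 1.79% of all windows. It stood in the windows of Dusp1 and Dusp8, which had no peak, and of Mapk10, whose peak lay in an intron. The Dusp8 window holds the element at 2 places. These sites are shown because the hormone receptor that hCG acts on signals through cAMP and CREB binds this element.
Dusp1: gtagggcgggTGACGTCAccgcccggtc
Dusp8 (first): cccgctccgcTGACGTCAcctgcccccg
Dusp8 (second): tggctgcaggTGACGTCAggggcttttt
Mapk10: ctctgggcttTGACGTCAtgtgtgctcc
They begin 143, 107, 63 and 29 bases before the TSS and lie on the minus strand, at chr17:26508598-26508625, chr7:142095374-142095401, chr7:142095330-142095357 and chr5:103211346-103211373. A match is a description of the letters and shows no binding.

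When a gene counted if its span had a peak within 50 kb, regardless of assignment, there were 23 of the 76 genes (30.3%, interval 20.2 to 41.9) against 18.2% of all protein-coding genes, a share below the interval. This count added 15 genes and left out Map3k7 and Map3k20, whose peaks lay 51 kb and 88.3 kb away. The genes added were Dusp13, Dusp19, Dusp21, Map2k2, Map3k2, Map3k9, Map3k11, Map3k13, Map4k2, Mapk4, Mapk9, Mapk11, Mapk15, Mapk1ip1l and Mapk8ip1. The median gap between a gene span and the nearest peak was 163 kb for the 76 genes and 279 kb for all protein-coding genes. Gene length moves with these counts. The 76 genes had a median length of 21.2 kb, against 17.2 kb for all protein-coding genes, and the 10 with a peak had 75.8 kb, against 20.2 kb for the 66 without. Over all protein-coding genes the medians were 43 kb with a peak and 15.9 kb without. The part of gene length in these counts was not tested.

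**Figure D3:**
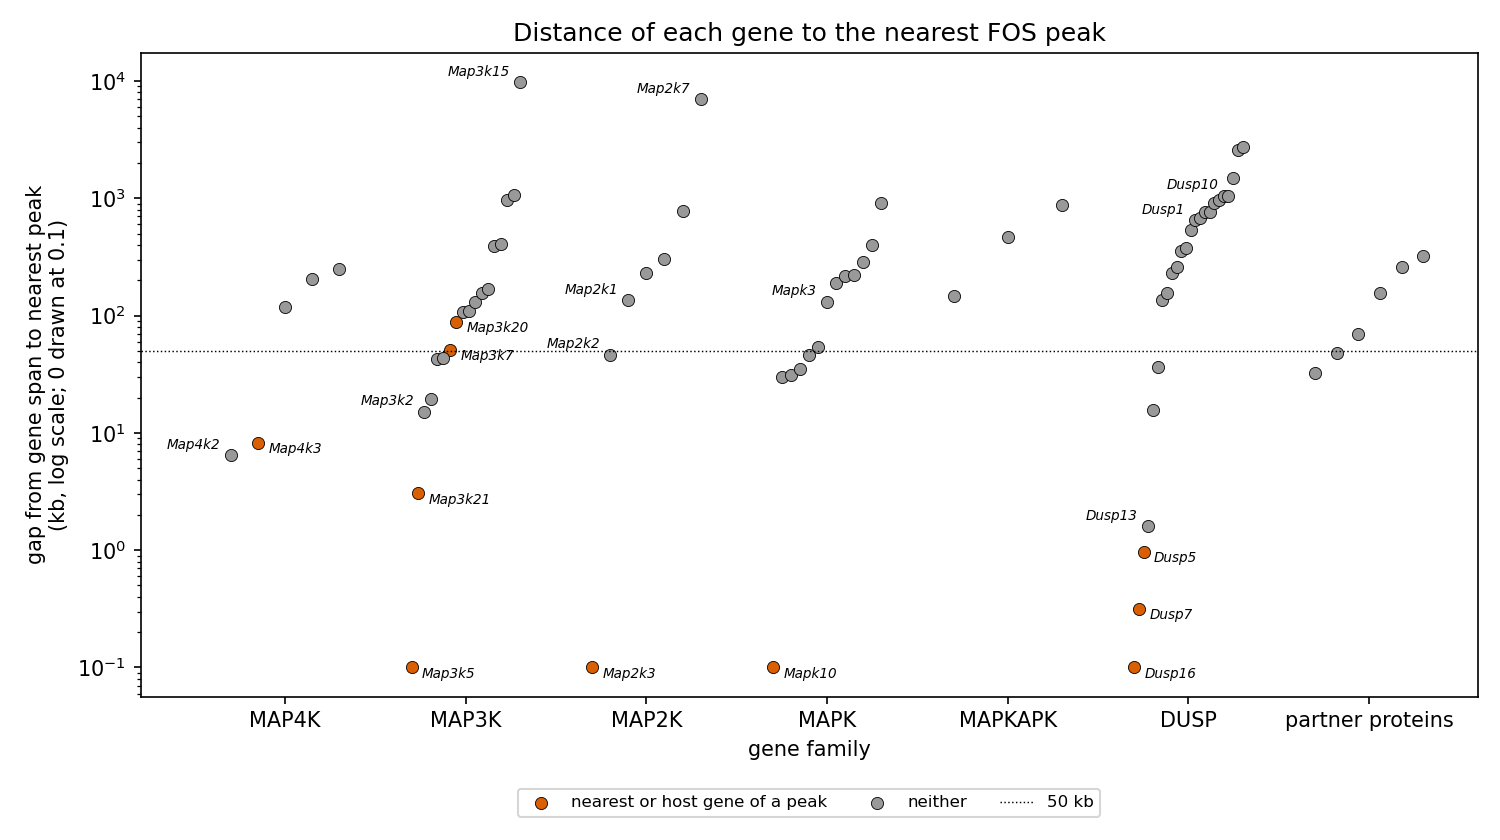
Gap in kb between each of the 76 gene spans and the nearest FOS peak (vertical, log scale, with a gap of 0 drawn at 0.1) by family (horizontal), with genes spread sideways in order of gap. Orange points are the 10 genes with a peak, grey points the other 66, and the dotted line is 50 kb; Map3k7 and Map3k20 are the orange points above it.

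Around the cascades, 33 of 130 other genes of the pathway had a peak (25.4%, interval 18.2 to 33.8), in 7 lists, against 8.69% of all protein-coding genes. The lists were put together with earlier results of these data known, so their shares cannot show an excess over that background. The 130 genes are long, with a median of 56.5 kb, and the part of their length in this share was not tested. Among 27 receptor and adaptor genes 8 had a peak (29.6%, against 8.69%), led by Fgfr1, a receptor of fibroblast growth factors, with a score of 327 at 53.1 kb upstream. Sos2, an activator of RAS, held a peak of score 114 in an intron. The others were Egfr and Igf1r (best scores of 97 for each), Erbb3 (70), Crk (67), Irs1 (57) and Erbb4 (51).

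Among 20 genes of the RAS and RAF group 7 had a peak (35.0%, against 8.69%), but Hras, Nras, Araf and Braf had none. The 7 were RAS relatives and regulators, namely Rasal2 (score 151), Rras2 (102), Rap1a (92), Rasgrf1 (85), Mras (55), Rras (34) and Rasa2 (31). The Rras2 peak lay in an intron of Spon1, 87.9 kb from the Rras2 TSS. The Rasal2 peak lay in Rasal2, but the authors' nearest gene for it is Tex35. In the other lists, the peaks in Sos2, Ksr1, Creb1, Ptprr and Ppm1b likewise had another nearest gene. Of 13 genes listed as feedback inhibitors, Gadd45g had peaks, with scores of 109, 95 and 74 at 6.77, 45.6 and 12 kb from its TSS. Gadd45g is known to activate the kinase encoded by Map3k4 and so is not an inhibitor of the cascade in the way the list's name says. The Sprouty and Spred genes, inhibitors of RAS signalling, had no peak.

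Of 16 scaffold and partner genes 3 had a peak (18.8%, interval 4.05 to 45.6, which holds the 8.69%). Spag9, which encodes the JNK scaffold JIP4, had a promoter peak of score 248 lying 832 bp upstream of the TSS. Ksr1, the scaffold of RAF, MEK and ERK, held an intronic peak of score 151, and Iqgap1 had one of score 52. Of 19 other kinases Mknk2, which ERK and p38 activate, had a peak of score 103 at 1.01 kb upstream, Rps6ka2, an ERK-activated ribosomal S6 kinase, 1 of score 91, and Tnik 1 of score 46. Among 22 transcription factor targets the peaks were at Fosl2 (best score 131), Mef2d (87), Creb1 (24) and Jun (23). For the feedback, other kinase and target lists too, the 8.69% lay within the interval of the share (7.69%, 15.8% and 18.2%).

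Of 13 other phosphatase genes 7 had a peak (53.8%, interval 25.1 to 80.8, against 8.69% of all protein-coding genes), in a short list put together with earlier results known. Ptpn5 (139) and Ptprr (91) encode tyrosine phosphatases that act on ERK and p38. Ppm1b (90) and Ppm1d (37) encode serine and threonine phosphatases, and Ppp2ca (55) the catalytic subunit of PP2A. Ssh1 (77) and Ssh2 (58) encode slingshot phosphatases, which act on cofilin and not on MAP kinases. The other lists were also put together with earlier results known, and no test of any list was made.

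As a check of the label, 5 of 9 granulosa markers (Cyp19a1, Hsd17b1, Inhba, Lhcgr and Nr5a2) had a FOS peak, against 8.69% of all protein-coding genes, and Foxl2, Fshr, Amh and Inha had none. Of the theca markers Cyp17a1 had one and Insl3 none, and of the endothelial markers Cdh5 had one and Pecam1 none. The leukocyte and oocyte markers Ptprc, Cd68, Zp3 and Gdf9 had none. A peak near a gene does not measure its expression, so these counts cannot show which cells the library held.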

How the data were processed

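The authors deposited 1 table of narrow peaks of the FOS library, annotated per the file headers with the annotatePeaks program of HOMER. The build was mm10 and the tools included MACS2 2.2.7.1 and BWA, per the submitters' processing notes. Threshold and control library were not given in the sources used here. In the deposited table the peak score is the authors' own; it ranks peaks within this list, and its scale is not stated. The peaks come from 1 library and were not pooled. Other deposited values used were positions and the signed distance to the nearest TSS, negative upstream.

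Gene names were matched to RefSeq GRCm38.p6 by accession, symbol or older symbol. All 1965 nearest-gene names matched, and 3 of 1314 names of genes holding a peak did not. Promoter sequences are from RefSeq. Shares carry exact 95% intervals. No test between groups was possible with 1 library. The gene set, the lists, the pathway groups and the alternatives were chosen with earlier results of these data known. Named are every gene of the set with a peak, genes of the cascade tiers and inducible phosphatases, and each listed pathway gene with a peak; some genes that this rule names are not reported here. Genes without a peak named for a nearby one, the pathway groups and the printed sequences were chosen after their values were seen. The steps that list genes with a peak and measure gaps were tested on simulated data, and name matching, peak classes and motif counts were not. Python 3.11.15 with numpy 2.4.6, scipy 1.17.1, pandas 2.3.3 and matplotlib 3.10.9 was used.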

Additional observations from a re-analysis of the deposited data

How the results depend on the processing

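The share of genes with a peak, 13.2%, left its interval under 3 alternatives. It was 30.3% with any peak within 50 kb of the gene span (18.2% of all protein-coding genes), 5.26% with peaks that scored at least 99 (2.55%) and 3.95% with peaks within 10 kb of a TSS (3.85%). These alternatives count more or fewer peaks by construction. The share stayed within its interval under the other 8, among them the nearest gene alone (11.8% against 7.58%), the gene a peak lies in alone (6.58% against 5.64%) and names as spelled in the deposited table (10.5% against 8.68%). With all annotated genes as the background the 13.2% stood against 4.45%, and this change could not move the share. Leaving out the top 1% of scores could move neither the share nor the median score. The highest of the 11 peaks scored 210, and the cut was at 307. The names as spelled, and for the share of genes the removal of the top 1% of scores, were added after seeing the data. So was the share of promoters with TGANTCA at 1 value per gene, 6.9% against a background of 8.97%. The median score was 76.5 with the nearest gene alone or with 1 best peak per gene, and 98 otherwise. No paired analysis was possible because 1 library was analysed and no test between groups was made. With 11 peaks, unknown depth and no replicates, a gene without a peak may have been missed by the peak calling.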
